A study of Mus musculus with 8 samples.

Results

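The type I interferon response genes are the genes that cells switch on when interferon alpha or beta binds its receptor, or when sensors detect foreign nucleic acid. A list of 39 such genes was followed in the arrays, and each was represented by a probe set of the deposited table that carries its symbol. A probe set was found for 38 of the 39, of 20566 genes and shared probe sets tested in all, and Ifi44 was not analysed here. For 34 of them the probe set carries 1 symbol, and 4 were read from a probe set shared with another gene. These are Isg15 (shared with Gm9706), Gbp2 (with Gbp2b), Ifi47 (with Olfr56) and Igtp (with Irgm2), so that their values cannot be assigned to 1 gene.

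Macrophages were recruited into the peritoneal cavity of C57BL/6J mice by thioglycollate, an irritant broth, and collected 5 days later. They were cultured in DMEM with 10% fetal bovine serum, either without addition (4 arrays, unloaded) or with acetylated low-density lipoprotein (4 arrays, acLDL), which macrophages take up through scavenger receptors until they are loaded with cholesterol. Differing descriptions of the exposure are given, namely 3 days at 20 µg/mL in the sample protocols and 2 days at 50 µg/mL in the series text. The 4 arrays of a condition are described as independent biological replicates, without saying which mice went into which culture, and no agent other than acLDL is named.

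Type I interferons bind a receptor made of IFNAR1 and IFNAR2, whose kinases JAK1 and TYK2 phosphorylate STAT2 among other proteins. STAT2 and IRF9 are parts of the complex ISGF3, which binds a promoter element called the interferon-stimulated response element (ISRE). Some of the same genes can also be switched on without interferon, by IRF3 or IRF7 acting directly at such elements. Macrophages hold many of these genes at a low tonic level and raise them when they sense viral or bacterial products.

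The promoters of 6 of the genes are shown for an element frequent among the listed genes, which the rule did not use and which 5 of the 6 windows hold. The sequences are those of RefSeq for build GRCm38.p6 and run from 250 bases before to 50 bases after the gene's start, 5′ to 3′ on the strand of the gene. Capitals mark the core of an ISRE, here GAAA, any 2 bases and GAAA again, searched on both strands, and overlapping matches are marked together. The windows are Ifit1, chr19:34640639-34640938, plus strand; Ifit3, chr19:34583279-34583578, plus strand; Bst2, chr8:71537423-71537722, minus strand. The others are Cmpk2, chr12:26468965-26469264, plus strand; Isg15, chr4:156200769-156201068, minus strand; Oas3, chr5:120777610-120777909, minus strand. The first 4 belong to genes that rose with acLDL, and Isg15 and Oas3 are shown because they carry the same letters and did not pass the test.
Ifit1: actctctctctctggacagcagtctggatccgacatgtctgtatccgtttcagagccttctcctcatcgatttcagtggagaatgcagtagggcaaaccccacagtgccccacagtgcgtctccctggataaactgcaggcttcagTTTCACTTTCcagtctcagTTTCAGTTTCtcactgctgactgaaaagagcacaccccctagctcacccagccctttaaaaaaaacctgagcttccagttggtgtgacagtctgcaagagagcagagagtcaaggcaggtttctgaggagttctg
Ifit3: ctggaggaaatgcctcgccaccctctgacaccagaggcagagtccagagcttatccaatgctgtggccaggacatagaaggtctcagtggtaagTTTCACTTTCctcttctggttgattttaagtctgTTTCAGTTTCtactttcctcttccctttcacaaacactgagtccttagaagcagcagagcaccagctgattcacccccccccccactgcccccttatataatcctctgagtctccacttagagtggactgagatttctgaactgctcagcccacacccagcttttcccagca
Bst2: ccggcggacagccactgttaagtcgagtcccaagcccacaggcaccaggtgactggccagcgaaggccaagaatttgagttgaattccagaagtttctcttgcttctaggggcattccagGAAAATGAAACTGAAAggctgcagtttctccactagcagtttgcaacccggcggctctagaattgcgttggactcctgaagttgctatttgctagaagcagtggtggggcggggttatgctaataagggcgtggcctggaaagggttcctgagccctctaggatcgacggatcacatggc
Cmpk2: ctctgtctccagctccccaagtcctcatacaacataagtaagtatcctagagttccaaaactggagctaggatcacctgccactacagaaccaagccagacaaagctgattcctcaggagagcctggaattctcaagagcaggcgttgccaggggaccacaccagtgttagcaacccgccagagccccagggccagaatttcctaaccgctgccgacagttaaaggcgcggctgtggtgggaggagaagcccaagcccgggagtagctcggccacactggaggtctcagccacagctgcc
Isg15: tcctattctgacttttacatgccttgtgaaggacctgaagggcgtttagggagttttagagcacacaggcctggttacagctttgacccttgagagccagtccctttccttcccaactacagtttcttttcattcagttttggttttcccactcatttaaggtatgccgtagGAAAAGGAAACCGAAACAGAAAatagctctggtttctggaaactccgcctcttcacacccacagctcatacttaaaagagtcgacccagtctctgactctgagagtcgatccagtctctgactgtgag
Oas3: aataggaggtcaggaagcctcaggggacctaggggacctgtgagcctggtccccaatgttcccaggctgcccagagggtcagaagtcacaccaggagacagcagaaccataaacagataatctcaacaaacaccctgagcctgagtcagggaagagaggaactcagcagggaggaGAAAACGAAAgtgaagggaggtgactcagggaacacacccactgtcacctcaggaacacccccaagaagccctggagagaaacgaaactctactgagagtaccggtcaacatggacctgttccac

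In the Ifit1 window the letters begin 104 and 85 bases before the start, and in the Ifit3 window 156 and 122 bases before it. Bst2 holds 2 overlapping matches from 130 and 124 bases before the start, and Isg15 holds 3, from 78, 72 and 66 bases before it. In Oas3 the letters begin 75 bases before the start. The Cmpk2 window holds no match. The letters occur in the windows of 17 of the 31 listed genes that the table holds (54.8%) and in 1079 of all 27025 genes (3.99%). A match of these letters is a description of the sequence and does not show that a factor binds there.

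In macrophages loaded with acLDL, 14 of the 38 interferon response genes were higher, 1 was lower and 23 did not pass the test (limma, adjusted p under 0.05 over all 20566 tested). The rises were 36.8% of the 38 genes, against 12.9% of all genes tested, and the single fall, in Parp9, was 2.63% against 10.9%. In either direction 39.5% of the list changed, against 23.8% of all genes. The largest rises were in Cmpk2, Ifit1, Ifit3 and Ifit2, which were 1.97-fold, 1.92-fold, 1.90-fold and 1.80-fold higher. A mean below 6.12 is called dim here, a log2 level that only 5% of the 1027 olfactory receptor genes exceed, a class taken as silent in macrophages. Ifit3 and Ifit2 were dim in the unloaded arrays, so their folds may be understated and the order among the 4 is not settled. These 4 were the members that changed by at least 1.5-fold (10.5% of the 38), a size reached upward by 1.38% and downward by 0.724% of all genes. The median log2 difference over the 38 genes was 0.10, and over all genes it was 0.00 (-0.0049). Dim in both groups were 4 of the 38 genes and 8218 of all 20566. With genes of a dim mean over all arrays left out, 14 of 33 listed genes changed (42.4%), against 4683 of 12050 genes (38.9%). In that set 12 listed genes rose and 2 fell, against 2689 and 1994 of the 12050 genes. The shares of all genes given throughout include dim genes unless stated. The genes and lists were chosen with earlier results of these arrays known, so these shares describe the list.

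**Figure D1:**
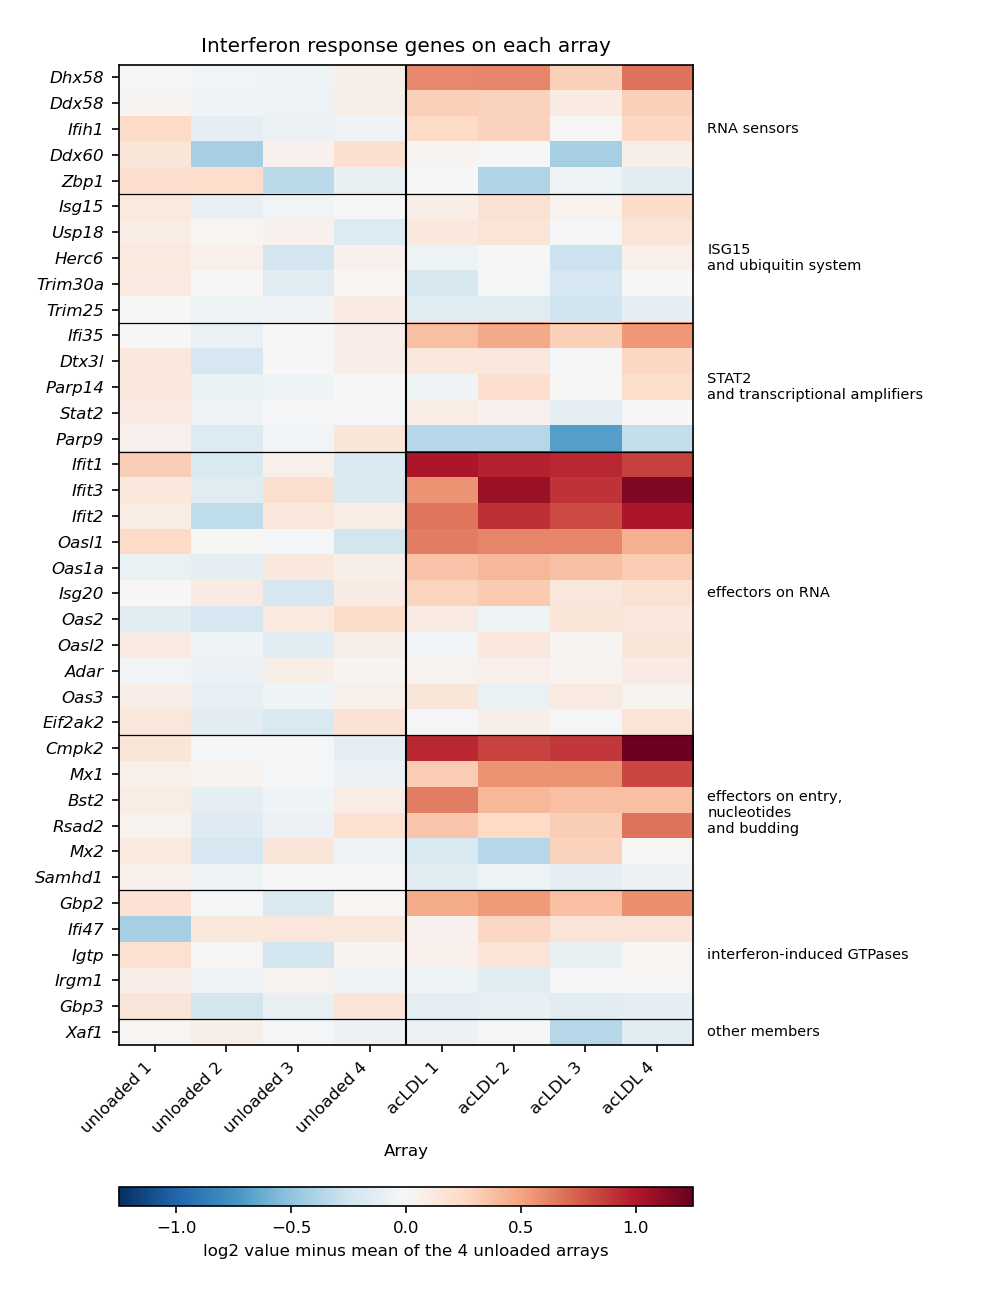
Log2 value of each of the 38 interferon response genes on each of the 8 arrays, shown as colour relative to the mean of that gene on the 4 unloaded arrays (red higher, blue lower), with genes grouped by role. Ifit1, Ifit2, Ifit3 and Cmpk2 are red on all 4 acLDL arrays, the ISG15 and ubiquitin group is pale throughout, and Parp9 is blue on the 4 acLDL arrays.

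The 4 acLDL arrays all lay above the 4 unloaded arrays in 14 of the 38 genes, against 14.0% of all genes, and all lay below them in 2, against 11.9%. Taken as a mean over the 14 genes that rose, the log2 level was 6.98, 6.81, 6.87 and 6.89 on unloaded arrays 1 to 4 and 7.42, 7.48, 7.39 and 7.54 on acLDL arrays 1 to 4, a description of genes chosen for their rise. Over the 23 genes that did not pass, the means ran from 7.41 to 7.56 in unloaded and from 7.43 to 7.55 in acLDL arrays and overlapped. The mean of unloaded arrays 1 and 4 stood above the mean of unloaded arrays 2 and 3 in 32 of the 38 genes, against 10124 of all 20566. The median gap was 0.11 on the log2 scale, while over all genes that gap was 0.00 (-0.0037). The labels give no reason for this split of the unloaded arrays, and other splits are not given here. The listed genes tended to vary together within groups (median pairwise correlation 0.30), so the 32 genes are not separate observations. Without unloaded arrays 1 and 4 the list had 15 rises and 0 falls, against 2648 and 2170 of all 20566 genes. Without unloaded arrays 2 and 3 it had 11 rises and 3 falls, against 2517 and 2369 of all genes. The part of this split in the results was not tested beyond these counts.

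The intracellular RNA sensors rose in part. Of the 5 measured genes, 2 passed as higher (40%, against 12.9% of all genes), 0 as lower and 3 not at all, with a median log2 difference of 0.20. Dhx58 encodes LGP2, a helicase that tunes the other sensors, and read 6.78, 6.74, 6.72 and 6.85 on the unloaded arrays and 7.37, 7.38, 7.07 and 7.45 on the acLDL arrays (log2). All acLDL arrays were above all unloaded arrays, with array 3 the lowest of them. Dhx58 was 1.46-fold higher (log2 difference 0.55 ± 0.08 SE, limma adjusted p = 0.00027). Ddx58, which encodes RIG-I, the sensor of RNA ends with a triphosphate, rose by 0.25 ± 0.07 (log2, SE, limma adjusted p = 0.0151), and the call was lost without unloaded arrays 2 and 3 (adjusted p = 0.0900).

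Ifih1 encodes MDA5, the sensor of long double-stranded RNA, and differed by 0.20 (95% interval 0.01 to 0.39, limma adjusted p = 0.117). On unloaded array 1 it read 8.26, within the acLDL range of 8.03 to 8.30, and without that array the difference was 0.28 and passed (adjusted p = 0.0166). Ddx60, a helicase that cooperates with RIG-I, read 6.26, 5.70, 6.17 and 6.32 on the unloaded and 6.14, 6.09, 5.70 and 6.18 on the acLDL arrays. Its means of 6.11 and 6.03 were dim, the groups overlapped, and the interval of the difference ran from -0.37 to 0.20. Zbp1, a sensor of left-handed nucleic acid that can start necroptosis, differed by -0.14 (95% interval -0.39 to 0.11) and did not pass.

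Of the ISG15 and ubiquitin genes 0 of 5 passed the limma test in either direction, against 23.8% of all genes, with a median log2 difference of -0.06. A group of 5 genes is too small to set 0 calls apart from that share. One of the 5 had an unadjusted p under 0.05, and this was Trim25, a ubiquitin ligase that acts on RIG-I. Trim25 read 9.61, 9.56, 9.57 and 9.71 on the unloaded and 9.46, 9.45, 9.37 and 9.50 on the acLDL arrays. The acLDL arrays all lay below, by 0.17 (95% interval -0.30 to -0.03, limma adjusted p = 0.0692), and the gene passed as lower in 4 of the 19 alternatives, with adjusted p from 0.0239 to 0.0483. Isg15, the ubiquitin-like modifier itself, went from 6.63 ± 0.09 to 6.77 ± 0.09 (log2, SD, n = 4), a difference of 0.14 with a 95% interval of -0.01 to 0.29, in the probe set shared with Gm9706.

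Usp18, which removes ISG15 and also restrains signalling at IFNAR2, differed by 0.10 (95% interval -0.05 to 0.26). Herc6, the ligase that attaches ISG15 in mice, read 8.15, 8.09, 7.80 and 8.08 without and 7.97, 8.04, 7.76 and 8.10 with acLDL. Both groups had their lowest value on array 3 and overlapped, and the interval of the difference was -0.26 to 0.13. Trim30a, a ubiquitin ligase that limits Toll-like receptor signalling, differed by -0.11 (95% interval -0.27 to 0.05).

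Among the genes around STAT2 and its amplifiers 1 of 5 rose, 1 fell and 3 did not pass, or 20% each way against 12.9% and 10.9% of all genes. Stat2, the subunit that is specific to the type I and type III interferon pathways, read 8.108, 7.945, 7.980 and 7.996 on the unloaded and 8.102, 8.060, 7.888 and 8.002 on the acLDL arrays. The groups overlapped, and the difference was 0.01 with a 95% interval of -0.14 to 0.15. Ifi35, an interferon-induced leucine zipper protein that pairs with NMI, rose from 7.14 ± 0.07 to 7.56 ± 0.11 (log2, SD, n = 4; limma adjusted p = 0.000583).

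Parp9, Dtx3l and Parp14 are neighbours on chromosome 16 in the RefSeq gene table and encode ADP-ribosyltransferases and, in the case of Dtx3l, a ubiquitin ligase that binds PARP9. Parp9 read 8.01, 7.78, 7.91 and 8.10 on the unloaded and 7.60, 7.60, 7.26 and 7.65 on the acLDL arrays. Every acLDL array was below every unloaded array, with acLDL array 3 lowest. Parp9 fell by 0.42 on the log2 scale (SE 0.09, limma adjusted p = 0.00483), and the call was lost without unloaded arrays 1 and 4 (adjusted p = 0.0512). Its neighbours differed by 0.12 (Dtx3l, 95% interval -0.06 to 0.30) and 0.10 (Parp14, -0.07 to 0.26) and did not pass.

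Effectors that act on RNA held 3 of the 4 rises of at least 1.5-fold. Of 11 measured, 6 passed as higher (54.5%, against 12.9% of all genes) and 0 as lower while 5 did not pass, and the median log2 difference was 0.23. The Ifit genes, whose proteins bind viral RNA and block its translation, moved furthest. Ifit1 read 6.75, 6.25, 6.50 and 6.25 on the unloaded and 7.45, 7.40, 7.38 and 7.29 on the acLDL arrays. The unloaded arrays were more spread than the acLDL arrays, and the groups lay apart. The log2 difference was 0.94 ± 0.10 (SE, limma adjusted p = 2.06e-05).

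Ifit2 read 6.21, 5.80, 6.25 and 6.21 on the unloaded and 6.79, 7.03, 6.93 and 7.12 on the acLDL arrays. Unloaded array 2 was the lowest, and no array of one group reached the other. The difference was 0.85 ± 0.10 (log2, SE, limma adjusted p = 5.45e-05). Ifit3 read 5.39, 5.10, 5.45 and 5.07 on the unloaded and 5.81, 6.33, 6.16 and 6.41 on the acLDL arrays, with acLDL array 1 the lowest of its group. The difference was 0.93 ± 0.12 (log2, SE, limma adjusted p = 0.000126).

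The unloaded means of Ifit2 and Ifit3, 6.12 and 5.25, lay at or below 6.12. Signals this dim are compressed on arrays. Ifit3 has a near-identical copy, Ifit3b, whose own dim probe set differed by 0.25 (95% interval 0.04 to 0.46) and did not pass (limma adjusted p = 0.0849), a gene named after its values were seen. The 3 Ifit genes lie close together on chromosome 19, where Ifit2 and Ifit3 are direct neighbours.

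The oligoadenylate synthetases and their relatives gave both calls and misses. The synthetases sense double-stranded RNA and activate RNase L. Oas1a rose from 7.62 ± 0.12 to 7.99 ± 0.04 (log2, SD, n = 4; limma adjusted p = 0.00182), and a second probe set, shared by Oas1a and Oas1g, rose by 0.40 on the log2 scale. Oasl1, which in mice holds back the translation of IRF7, rose from 7.69 ± 0.19 to 8.27 ± 0.09 (log2, SD, n = 4; limma adjusted p = 0.000396), or 1.49-fold. Oas2, Oas3 and Oasl2 differed by 0.08, 0.06 and 0.07, and the upper ends of their 95% intervals were 0.29, 0.21 and 0.23, below the lower end of 0.39 for Oasl1. The interval of Oas1a, 0.21 to 0.51, overlapped those of Oas2 and Oasl2, and that of Oas3 ended near its lower end. The differences between these genes were not tested.

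Isg20, an exonuclease that degrades viral RNA, rose by 0.23 ± 0.08 (log2, SE, limma adjusted p = 0.0428), the weakest call in the list. The Isg20 call was lost when arrays were centred on their medians (adjusted p = 0.0769), without unloaded array 1 (0.0636) or 3 (0.107), without acLDL array 1 (0.106), 2 (0.119) or 4 (0.0671), and without unloaded arrays 2 and 3 together (0.109). Eif2ak2, the kinase PKR that halts translation on double-stranded RNA, read 7.68, 7.41, 7.35 and 7.72 without and 7.52, 7.61, 7.52 and 7.71 with acLDL. The unloaded arrays enclosed the acLDL arrays, and the difference was 0.05 (95% interval -0.14 to 0.24). Adar, the RNA-editing adenosine deaminase, differed by 0.06 (95% interval -0.07 to 0.19).

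**Figure D2:**
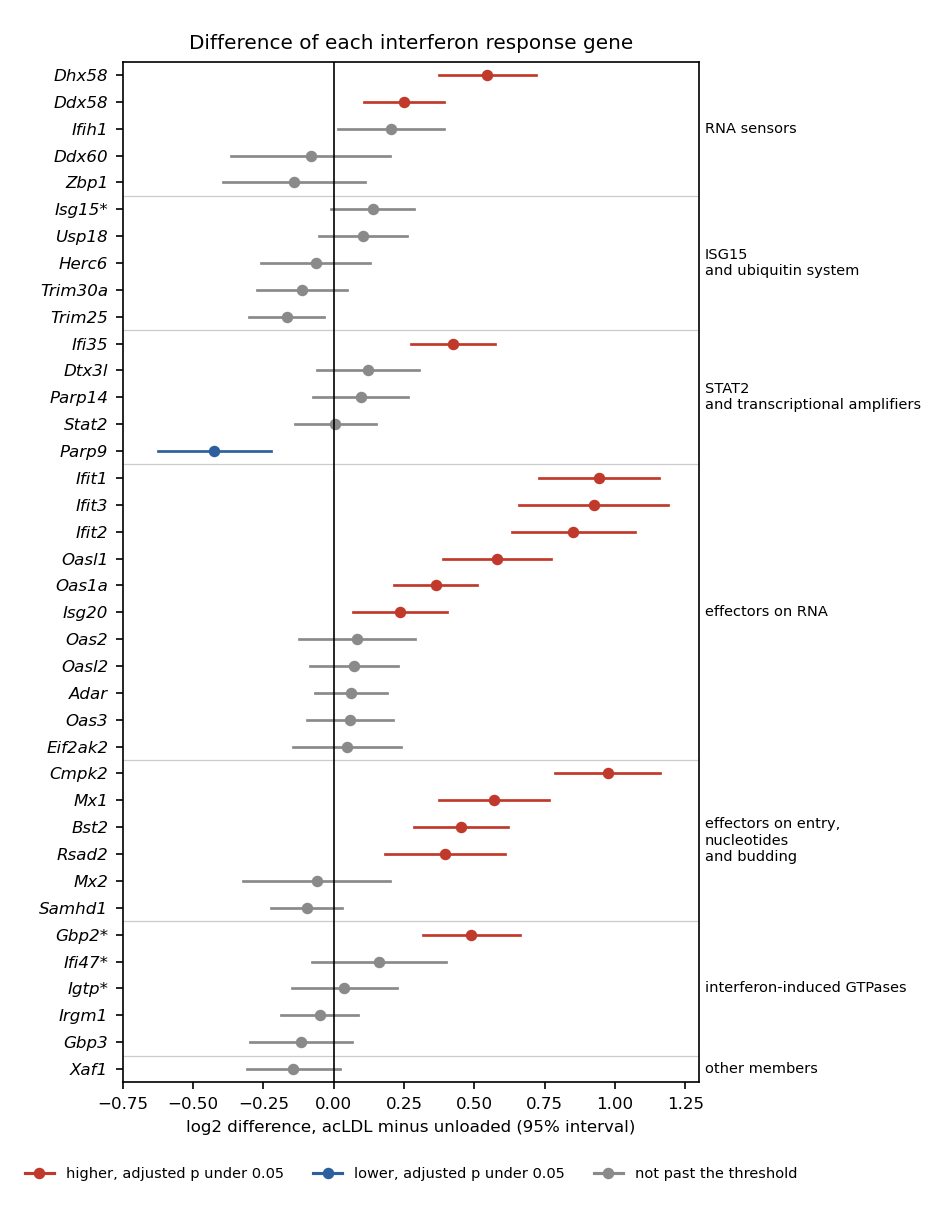
Log2 difference between acLDL and unloaded arrays for each of the 38 genes (point) with its 95% interval from limma (line), grouped by role, and with an asterisk where the probe set is shared with another gene. Points of genes past the adjusted p threshold are red or blue, the others grey, and the largest differences are those of Cmpk2, Ifit1, Ifit3 and Ifit2 at 0.97, 0.94, 0.93 and 0.85.

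Genes whose products act on viral entry, nucleotides and budding rose in 4 of 6 cases (66.7%, against 12.9% of all genes), with 0 falls and a median log2 difference of 0.42. Cmpk2, a mitochondrial nucleotide kinase, read 6.73, 6.56, 6.56 and 6.46 on the unloaded and 7.52, 7.43, 7.46 and 7.80 on the acLDL arrays. The lowest acLDL array stood well above the highest unloaded array. The difference was 0.97 ± 0.09 (log2, SE, limma adjusted p = 5.66e-06), and the gene ranked 47 by rise among the 20566 tested.

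Rsad2 is the direct neighbour of Cmpk2 on chromosome 12 and encodes viperin, which turns a nucleotide into a chain terminator. It rose from 8.02 ± 0.15 to 8.41 ± 0.19 (log2, SD, n = 4; limma adjusted p = 0.0102), and without unloaded arrays 2 and 3 the difference was 0.28 and did not pass (adjusted p = 0.0944). Bst2, or tetherin, which holds budding virus at the cell surface, rose from 8.28 ± 0.11 to 8.73 ± 0.12 (log2, SD, n = 4), or 1.37-fold (limma adjusted p = 0.000884).

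Mx1 encodes a dynamin-like GTPase that blocks influenza virus, and RefSeq lists both Mx1 and Mx2 of C57BL/6J mice as transcribed pseudogenes. Mx1 rose from 4.67 ± 0.06 to 5.24 ± 0.21 (log2, SD, n = 4; limma adjusted p = 0.000517), with both means below 6.12, so that its size of 1.48-fold may be understated. Mx2 read 4.63, 4.30, 4.66 and 4.44 without and 4.32, 4.15, 4.79 and 4.52 with acLDL. These levels are in the range of genes that are off, and the groups overlapped. Samhd1, which removes the building blocks of DNA synthesis, differed by -0.10 (95% interval -0.22 to 0.03).

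The interferon-induced GTPases, which attack the membranes around intracellular microbes, rose in 1 of 5 cases (20%, against 12.9% of all genes). Gbp2, in the probe set shared with Gbp2b, read 7.69, 7.49, 7.33 and 7.54 on the unloaded and 7.97, 8.05, 7.89 and 8.10 on the acLDL arrays. The groups lay apart, and the shared signal was 1.40-fold higher (log2 difference 0.49 ± 0.08 SE, limma adjusted p = 0.000589). The probe set that carries Gbp2b alone fell by 0.23 (log2, limma adjusted p = 0.0184), from levels below 6.12, and it missed the threshold in 5 alternatives, among them those without unloaded array 2 (adjusted p = 0.0526), acLDL array 2 (0.0625) or acLDL array 3 (0.0511).

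Igtp, in the probe set shared with Irgm2, read 6.97, 6.79, 6.55 and 6.82 without and 6.84, 6.95, 6.69 and 6.80 with acLDL. Unloaded array 3 was the lowest and the groups overlapped (95% interval of the difference -0.15 to 0.23). Irgm1, Gbp3 and Ifi47 differed by -0.05, -0.12 and 0.16 and did not pass. Of 11 further GTPase genes of these families 1 rose and 1 fell (9.09% each, against 12.9% and 10.9% of all genes) and 9 did not pass, and the one that rose was Gbp5 (0.28 ± 0.07, log2, SE, limma adjusted p = 0.00873), also from levels below 6.12. Xaf1, which counters an inhibitor of apoptosis and stands outside the role groups, read 6.47, 6.52, 6.44 and 6.38 without and 6.38, 6.44, 6.10 and 6.33 with acLDL. Its groups overlapped, with a 95% interval of -0.31 to 0.02.

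The ISRE letters were set beside the response without a test. Over all genes tested 12.9% rose and 10.9% fell. Of the 17 measured genes with the ISRE letters in a window, 7 rose and 0 fell, with a median log2 difference of 0.14. Of the 13 with a window and no such letters, 5 rose and 0 fell, with a median of 0.12, and the rises include Cmpk2, Ifit2 and Oasl1. The other 8 genes have no window in the table, and 2 of them rose and 1, Parp9, fell. No match says only that these letters are not in this window.

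**Figure D3:**
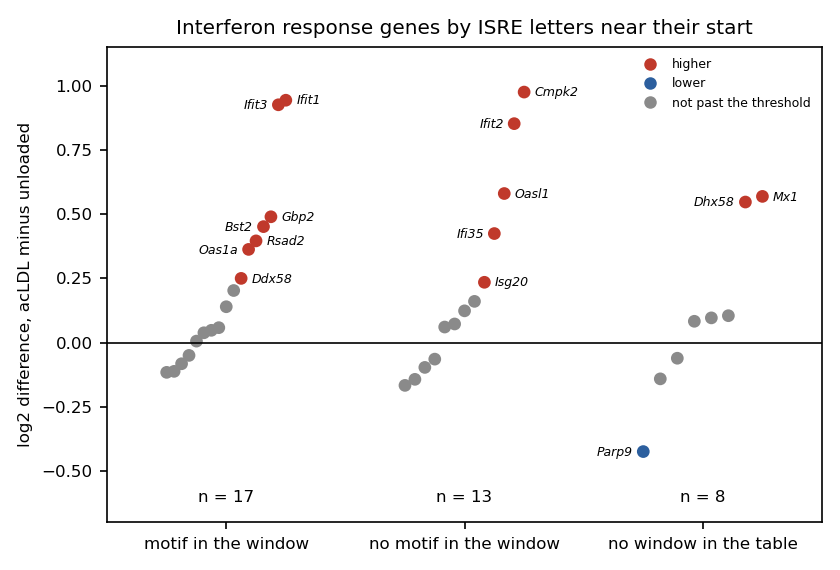
Log2 difference between acLDL and unloaded arrays of the 38 genes (points; red higher, blue lower, grey not past the threshold), set apart by whether the ISRE letters occur in the RefSeq window around the start. Genes with the letters (n = 17) span -0.12 to 0.94, genes without them (n = 13) span -0.17 to 0.97, and genes with no window in the table (n = 8) span -0.42 to 0.57.

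The interferon genes themselves were mostly dim. Of 18 probe sets of the list 1 was higher (5.56%, against 12.9% of all genes), 2 were lower (11.1%, against 10.9%) and 15 did not pass, and 13 had means below 6.12 in both groups. Ifnb1, which encodes interferon beta, read 5.36, 5.33, 5.40 and 5.35 on the unloaded and 5.45, 5.55, 5.56 and 5.24 on the acLDL arrays, a difference of 0.09 (95% interval -0.07 to 0.25). Ifna4 and Ifng differed by 0.06 (95% interval -0.08 to 0.20) and -0.07 (95% interval -0.24 to 0.10). No change in these transcripts was detected, which does not show that there was none. Dim signals are compressed, so the intervals may understate a change, although other dim probe sets, such as that of Mx1, passed.

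Ifnz, a member of the interferon zeta genes, read 7.28, 7.40, 8.64 and 7.42 on the unloaded and 8.43, 8.49, 8.44 and 8.62 on the acLDL arrays. Unloaded array 3 lay at the acLDL level, so the groups overlapped, although the fit gave a difference of 0.81 (log2, limma adjusted p = 0.0171). Its call did not hold without unloaded array 2 (adjusted p = 0.0513) or 4 (0.0531), without arrays 1 and 4 together (0.186), or with a trended robust prior (0.117). Ifna12 and Ifna16 were lower by -0.38 and -0.24 on the log2 scale, and each lost its call in several alternatives, with adjusted p of up to 0.0910 and 0.141. The number of changed interferon genes ran from 0 without unloaded array 4 to 5 without unloaded array 1, and was 1 without unloaded array 2.

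Of 23 receptor and signalling genes 8 were higher (34.8%, against 12.9% of all genes), 1 was lower (4.35%, against 10.9%) and 14 did not pass. With dim genes left out, 10 of the 23 changed (43.5%), against 38.9% of all genes. Among the receptor chains, Ifnar2 rose from 9.34 ± 0.16 to 9.66 ± 0.02 (log2, SD, n = 4; limma adjusted p = 0.00754), a call lost without unloaded arrays 2 and 3 (adjusted p = 0.0553). Ifnar1 differed by 0.04 (95% interval -0.10 to 0.19). The kinase gene Jak1 stood at 10.91 in both groups, and Tyk2 differed by 0.26 (95% interval 0.06 to 0.45, limma adjusted p = 0.0563). Tyk2 passed in 7 alternatives, among them those without unloaded array 4 (adjusted p = 0.0192) and without acLDL array 3 (0.0234).

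The interferon regulatory factors did not move together. Irf7, which amplifies interferon production, read 7.07, 6.93, 6.82 and 6.97 on the unloaded and 7.72, 7.64, 7.26 and 7.57 on the acLDL arrays, and was 1.52-fold higher (limma adjusted p = 0.000404). Irf3, its constitutive relative, rose by 0.32 ± 0.06 (log2, SE, limma adjusted p = 0.00264), and Irf9, the DNA-binding part of ISGF3, differed by -0.06 (95% interval -0.21 to 0.09). Tbk1, the kinase that phosphorylates IRF3 and IRF7, was the gene that fell, from 9.35 ± 0.08 to 8.82 ± 0.08 (log2, SD, n = 4; limma adjusted p = 8.99e-05). Tlr7, the endosomal sensor of single-stranded RNA, and Ptpn6, the phosphatase SHP-1, rose by 0.42 and 0.38 on the log2 scale.

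**Figure D4:**
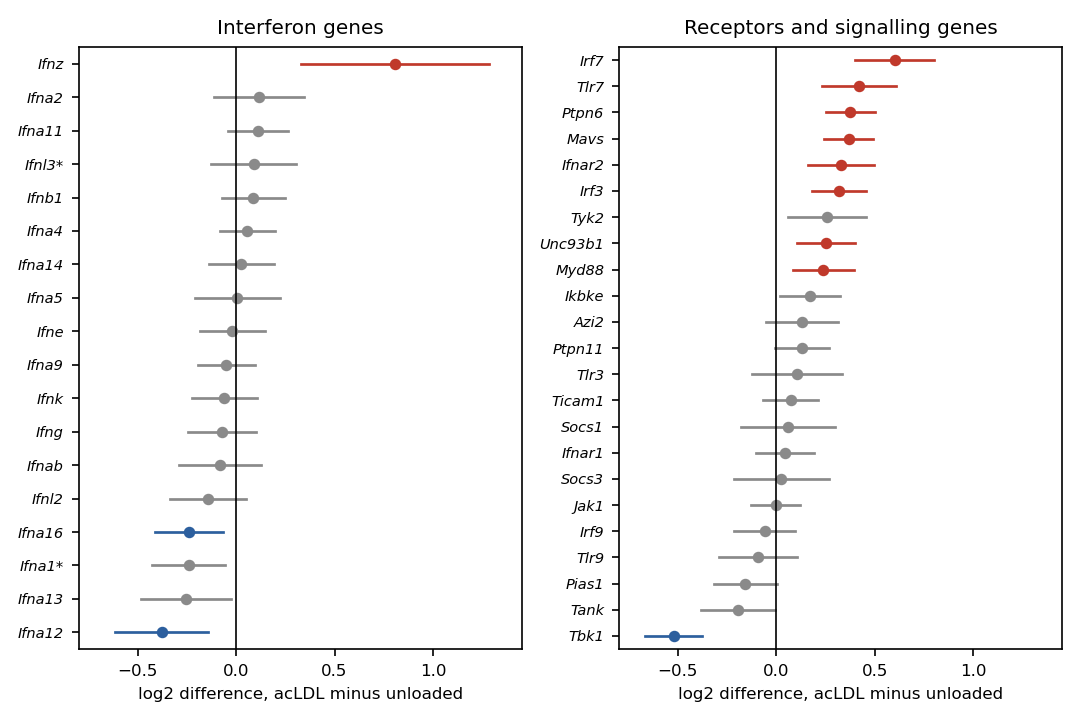
Log2 difference between acLDL and unloaded arrays with its 95% interval for 18 probe sets of interferon genes (left) and 23 receptor and signalling genes (right), red higher, blue lower and grey not past the threshold, an asterisk marking shared probe sets. Most interferon genes lie near 0 apart from Ifnz, while Irf7 and Tbk1 stand at opposite ends of the signalling genes at 0.60 and -0.52.

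Beyond the list, 66 further interferon-induced genes were measured. Of these 19 rose (28.8%, against 12.9% of all genes), 8 fell (12.1%, against 10.9%) and 39 did not pass, and their median log2 difference was 0.06. Without acLDL array 1 the count of changed genes was 16 in place of 27 (24.2% in place of 40.9%). The count over all genes then also fell, to 3791 from 4892 (18.4% from 23.8%). Ly6e, a membrane protein that several viruses meet at entry, rose from 8.56 ± 0.18 to 9.36 ± 0.08, and Ifitm3, which blocks fusion of viruses in endosomes, rose from 10.91 ± 0.22 to 11.66 ± 0.03 (log2, SD, n = 4). Ifi205, of the family of DNA-binding p200 proteins, rose by 0.75. The probe set shared by Ly6c2 and Ly6c1, surface markers of inflammatory monocytes, fell by 0.69 on the log2 scale.

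Genes of the interferon gamma axis changed in 2 of 12 cases (16.7%, against 23.8% of all genes). Irf8, a transcription factor of the macrophage lineage, rose by 0.31 and Nos2, the inducible nitric oxide synthase, fell by 0.33 on the log2 scale. The Irf8 call was lost without unloaded arrays 2 and 3 (limma adjusted p = 0.0544).

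The cells carried macrophage markers. Cd68 stood at 12.93 ± 0.03 in unloaded and 12.85 ± 0.04 in acLDL arrays (log2, SD, n = 4). Of 8 such markers 4 rose (50%, against 12.9% of all genes) and 1 fell (12.5%, against 10.9%), and their mean log2 level ran from 10.33 to 10.45 in unloaded and from 10.60 to 10.65 in acLDL arrays. Fcgr1, a high-affinity Fc receptor that interferon also induces, rose by 0.71. Of 48 measured markers of other cells 0 rose, 6 fell (12.5%, against 10.9% of all genes) and 42 did not pass (limma; 10 had an unadjusted p under 0.05), and 32 lay below 6.12 in both groups.

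Plasmacytoid dendritic cells are the main source of interferon alpha in many tissues. Of 7 of their markers 0 passed the limma test in either direction, against 23.8% of all genes. Of these 7, 1 had an unadjusted p under 0.05 and 3 lay below 6.12 in both groups. Their mean level ran from 6.25 to 6.40 in unloaded and from 6.26 to 6.35 in acLDL arrays. Among markers of other cells, Siglecf, a lectin of eosinophils, fell from 7.97 ± 0.13 to 7.37 ± 0.09 (log2, SD, n = 4; limma adjusted p = 9.38e-05) and kept its call in 19 of 19 alternatives. Of the 9 measured eosinophil and mast cell markers 2 fell (22.2%, against 10.9% of all genes) and 7 did not pass. The eosinophil genes Epx, Prg2 and Ccr3 were dim and differed by 0.15, -0.02 and 0.15 (log2, named after their values were seen), so the Siglecf fall was not assigned to eosinophils. Of 8 neutrophil markers 2 fell (25%, against 10.9% of all genes) and 6 did not pass. Ly6g, at a dim level, fell by 0.32 (log2, limma adjusted p = 0.0131), a call lost without unloaded arrays 2 and 3 (adjusted p = 0.117). Camp, also dim, fell by 0.26 (log2, limma adjusted p = 0.0146, named after its values were seen). Il7r, the brightest of the T cell list, fell by 0.62 on the log2 scale from 12.22. The other 5 measured T cell markers had unloaded means from 5.28 to 6.47 and did not pass, so the Il7r fall was not assigned to T cells. The matrix gene Dcn fell by 0.26 on the log2 scale from 10.74 ± 0.13 (log2, SD, n = 4). Dcn missed the threshold without unloaded array 4 (adjusted p = 0.0729), without acLDL array 3 (0.0699) or 4 (0.0579), and without unloaded arrays 1 and 4 (0.155). Of the other markers of mesothelial cells and fibroblasts, Col1a1 stood at 9.42 and 9.44, Col3a1 at 9.23 and 9.12, and Pdgfra at 9.81 and 9.57 in unloaded and acLDL arrays (log2 means, named after their values were seen), so transcripts of such cells were present and their part in the results was not tested.

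The other named markers did not pass. Tcf4 and Pacsin1 of plasmacytoid dendritic cells differed by 0.06 and 0.18 on the log2 scale. Prf1 and Gzma of natural killer cells differed by -0.02 and -0.12, and Cd79b and Cd79a of B cells by 0.06 and 0.21. S100a8 of neutrophils differed by -0.03. In these bulk cultures a change in the number of cells of a type and a change in RNA per cell cannot be told apart, and the part of the macrophage markers in the rises above was not tested.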

How the data were processed

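Total RNA of 8 macrophage cultures was measured on Affymetrix arrays after biotin labelling, per the labels' protocols. The deposited log2 values are robust multi-array averages (RMA) computed by the authors, according to the submitters' processing notes, and its version is not given here. This method compresses differences of dim genes and hides a change that all genes share. Of 35557 deposited probe sets, 23410 were in the platform annotation, 21789 with 1 symbol and 1621 with several. Each gene was represented by its brightest probe set with 1 symbol over the 8 arrays, otherwise by a shared one, which left 19938 and 628 probe sets, 20566 in all. Symbols were checked through Entrez identifiers against RefSeq (GRCm38.p6), which matched 21698 and changed 0. No probe set coordinates are given, because the annotation names no build. Promoter windows and their coordinates come from the RefSeq table, which held 31 of the 39 genes.

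Differences are acLDL minus unloaded, tested two-sided on all 8 arrays with lmFit and eBayes of limma 3.58.1 (R 4.3.3), with Benjamini-Hochberg adjustment over the 20566 probe sets, with a threshold of 0.05. Intervals are limma's 95% intervals. In simulated arrays with 200 of 20566 probe sets changed by 1.5-fold or more, the step recovered 100% of those changed by 1.5-fold. Over all sizes 8 of 208 calls were false. The simulated noise was independent between arrays and probe sets, and far fewer genes were changed than the 4892 called here. The spread of the noise was taken after limma's shrinkage toward a common value, so noisy probe sets were quieter than in the data. Smaller changes were not simulated, so these rates do not cover the rises below 1.5-fold. Equal replicate numbers were not used as pairs. The members and gene lists were chosen with earlier results of these data known. All members were named, and values per array were printed for those past 1.5-fold and for the largest and smallest difference of each role group. Of each pathway list the 4 largest changes past the threshold were named, with 10 fixed genes of the pathway (Ifnb1, Ifna4, Ifng, Ifnar1, Ifnar2, Jak1, Tyk2, Irf9, Irf7 and Irf3). Of each marker list the brightest gene and the one with the smallest p belong to the rule. Alternatives were a replicate block, other choices of probe set, median centring, quantile normalisation applied again, removal of dim genes, a prior that is trended and robust, weights for arrays, and leaving out arrays singly or in pairs. The number of arrays, 4 in each group, limits the precision.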

Additional observations from a re-analysis of the deposited data

Results flagged for a closer look

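In groups of 4 arrays, a value was singled out where its gap to the nearest other array as a share of the range of the group was above Dixon's 95% critical value. Of 150 groups examined, from the 38 interferon response genes and 37 named genes of other lists, 12 met this, and chance gives about 5%. The cause was not tested for any of them.

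On acLDL array 3, Ddx58 (7.947, others 8.1298 to 8.1424), Ifih1 (8.0327, others 8.2633 to 8.2988), Parp9 (7.2592, others 7.5967 to 7.6517) and Tyk2 (8.2135, others 8.4666 to 8.5056) were low. On the other acLDL arrays, Oasl1 was low on array 4 (8.1344, others 8.2999 to 8.3316), and Bst2 (8.9127, others 8.6508 to 8.6931) and Irf8 (9.3744, others 9.2206 to 9.2337) were high on array 1. Among unloaded arrays, Ifit2 (5.8006, others 6.2082 to 6.2497) and Gbp5 (4.9343, others 5.0737 to 5.0822) were low on array 2, and Ifi47 (4.9026, others 5.4441 to 5.4601) and S100a8 (6.0762, others 6.2194 to 6.2424) were low on array 1. Ifnz was high on unloaded array 3 (8.637, others 7.2842 to 7.4222). All values are log2.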

How the results depend on the processing

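Of the 15 interferon response genes called, 11 kept their call in all alternatives that tested them, and Ddx58, Rsad2, Parp9 and Isg20 lost it in 1 or more of 19. Ifih1, Trim25 and Gbp3 gained a call in 1 or more. Leaving out each array in turn gave 13 to 14 rises, 1 fall, 14 to 15 changed genes, 4 to 6 changed by at least 1.5-fold and a median from 0.0617 to 0.1356. Falls numbered 2 without dim genes, after repeated quantile normalisation and with a trended robust prior, 0 without unloaded arrays 1 and 4, and 3 without arrays 2 and 3. Without arrays 1 and 4, 7 genes changed by at least 1.5-fold. The cause was not tested.

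The number of changed interferon genes was 1 after repeated quantile normalisation, with a trended robust prior and without unloaded arrays 2 and 3, against 3, and ran from 0 to 5 over single arrays left out. Wider interferon-induced genes ran from 16 to 25 over single arrays left out, against 27. Other GTPase genes numbered 0 without dim genes, where 4 were tested, 1 after repeated quantile normalisation and without unloaded arrays 2 and 3, and 1 to 3 over single arrays left out, against 2. Interferon gamma axis genes numbered 1 without dim genes, where 8 were tested, and 4 without unloaded arrays 1 and 4, against 2. Receptor and signalling genes ran from 7 to 10 over single arrays left out, and all genes changed from 3791 to 4835, against 4892.

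The labels do not say what arrays of equal replicate number share, so the numbers were not taken to pair the arrays. Equal numbers gave correlations of deviations across genes of 0.11, -0.16, 0.30 and 0.14, and 3 of 8 arrays correlated best with their own number. With the replicate block 14 listed genes rose and 1 fell, 5109 of all genes changed, and Tyk2 passed (adjusted p = 0.0149). Dim signal limits the interferon genes, of which 13 of 18 lay below 6.12, and Mx1, Mx2, Ifi47 and Ddx60.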
